A study of Gallus gallus with 18 samples.

Results

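The uterus of the laying hen, or shell gland, was compared between the growth and the initiation of eggshell calcification in hens of the high eggshell strength group. Of the 18 libraries in the series, the 6 with these labels were set against each other. They were high strength growth replicates 1 to 3 and high strength initiation replicates 1 to 3. The change was described across all 16110 loci abundant enough to test. The tissue in every library came from Hy-Line Brown hens, a commercial brown-egg layer, aged 42 weeks, and no other treatment is given. The series was made to examine calcification in hens that lay hard or weak shells. Its other libraries come from high strength termination and from low strength growth, initiation and termination, with 3 in each group. The labels give neither the hours after ovulation behind each period nor the shell strength of any hen, and they do not tie a library to a hen. The p-values therefore measure the spread between libraries, which may be technical in part. For the tests of loci this spread was estimated over all 18 libraries.

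In the oviduct the egg first receives its yolk coat, albumen and shell membranes, and it then stays in the uterus while calcite is laid down on the membranes. Initiation is the deposition of the first crystals on organic sites of the outer membrane, and growth is the long phase in which the columnar palisade layer is built at a high and steady rate. The uterine glands and surface epithelium do not store calcium for this. They pass calcium and bicarbonate from the blood and their own metabolism into the fluid around the egg, together with organic matrix proteins that direct crystal form. The deposited tables list loci by Ensembl identifier or by a number of the authors' own, without gene names, so genes of these pathways could not be picked out and no sequence is shown. The markers of the uterus and of its other cell types could not be examined for the same reason.

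The 3 growth libraries held 13762700, 13715855 and 16061908 counts, and the 3 initiation libraries held 13322102, 13947527 and 14003188 counts. Counts were found for 17862 to 18027 of the 20866 listed loci in growth and for 17901 to 18142 at initiation. Libraries of the same period correlated across loci, on log2 CPM (CPM being counts relative to the scaled library size), at Pearson's r = 0.962 to 0.972 within growth and 0.959 to 0.983 within initiation, against 0.823 to 0.893 between the periods. The first principal component of these 6 libraries held 75.7% of the variance, with growth at 88.9, 67.7 and 71.3 and initiation at −95.9, −60.2 and −71.7. In both periods replicate 1 lay farthest out. Base quality separated the periods too: bases of quality 30 or more made up 92.84%, 92.38% and 93.7% in growth and 91.55%, 91.65% and 91.61% at initiation, without overlap. An exact permutation test (two-sided) gave p = 0.1, which is the lowest value that 3 libraries a group can reach, and an adjusted p of 0.3 over 9 library measures. Its part in the results below was not tested.

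Growth differed from initiation across a large part of the uterine transcriptome of high strength hens. In growth 2990 loci were higher, 18.6% of those tested, and 2555 were lower, 15.9%, which together is 34.4%. The test was the quasi-likelihood test of edgeR, with p adjusted by Benjamini-Hochberg over all loci and a threshold of 0.05. It was fitted to all 18 libraries, so that all 6 groups shared 1 estimate of the spread. Fitted to the 6 high strength growth and initiation libraries alone, it called 7967 of 15144 loci. Of the 5545 loci called in the fit to 18 libraries, 3989 were estimated to change more than 2-fold. For 1557 the estimate was more than 4-fold and for 180 more than 16-fold. The loci that rose had a median log2 change of 1.55 and those that fell a median of −1.29. Over all tested loci the median was −0.02, and the middle of the distribution was wide, with a median absolute log2 change of 0.67 and a 5th to 95th percentile range of −1.83 to 2.30. In 5429 of the called loci the 3 growth libraries did not overlap the 3 initiation libraries. Another 4411 loci also showed no overlap but did not pass the test, so that 61.1% of all tested loci had separate ranges. In whole-tissue RNA, fewer cells of a type and less RNA per cell cannot be told apart.

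The balance of rises and falls rested on the scaling. With counts scaled by the trimmed mean of M values (TMM), 53.9% of the called loci rose, but with scaling to total counts 2126 rose and 2973 fell, which is 41.7% higher, and with upper-quartile scaling 2533 rose and 3145 fell. With replicates 1, 2 and 3 left out in turn, the number of calls was 3116, 4195 and 3601 for growth and 2742, 3803 and 2963 for initiation. Leaving out a library also leaves fewer replicates. In every one of the 6 fits that each left out 1 high strength initiation or growth library, 2161 loci stayed called in the same direction, 1221 higher and 940 lower in growth.

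**Figure D1:**
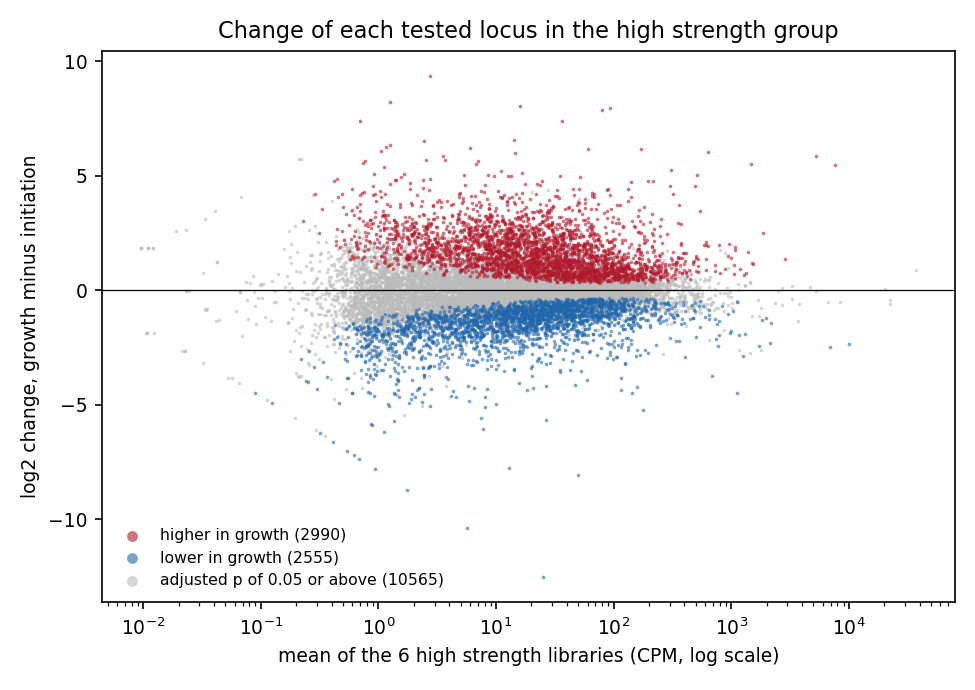
Each point is a locus, with its mean over the 6 high strength growth and initiation libraries in CPM on a log axis and its log2 change, growth minus initiation. The 2990 loci called higher and the 2555 called lower lie at all levels of abundance, and the widest changes are among loci of low and middle abundance; 9 tested loci with no count in these libraries cannot be drawn.

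Among all called loci, ranked by the fitted log2 change, the largest rise of an Ensembl locus was that of ENSGALG00000020984. It stood at 6.45, 5.17 and 4.89 CPM in the growth libraries and had no counts in the 3 initiation libraries. The groups were fully apart. Without counts at initiation the size of the fitted change depends on the prior count, so its rank is not one of measured size. With a floor of 3 counts in each initiation library, the growth mean of 5.5 ± 0.833 CPM (SD, n = 3) was at least 27.4-fold higher (adjusted p = 0.00259 by edgeR). The same locus in low strength hens had 5.51, 7.1 and 4.44 CPM in growth and 0 counts at initiation.

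The most abundant Ensembl locus to rise was ENSGALG00000006662. It reached 16827, 13987 and 14105 CPM in growth, against 540, 234 and 251 CPM at initiation. All growth libraries were far above all initiation libraries, and initiation replicate 1 was the highest of its group. It rose by 5.45 ± 0.54 on the log2 scale (± standard error, SE; adjusted p = 4.76e-05 by edgeR). It had 691049 counts over the 3 growth libraries. The low strength libraries averaged 18081 ± 3185 CPM in growth and 268 ± 95.7 CPM at initiation (SD, n = 3 each), a change of 6.07 ± 0.55 (log2, SE). The change in high minus that in low strength hens was −0.62 ± 0.63 (log2, SE) and did not pass the test (adjusted p = 0.81 by edgeR).

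The largest fall of an Ensembl locus among the called loci, again by the fitted log2 change, was that of ENSGALG00000014900. It had no counts in the 3 growth libraries and stood at 1.03, 6.86 and 2.56 CPM at initiation. Its fitted change thus also depends on the prior count, and its place in this ranking is a description. The initiation libraries were spread widely around their mean of 3.48 ± 3.02 CPM (SD, n = 3), so that growth, at a floor of 3 counts in each library, was at least 17.8-fold lower. Without initiation replicate 2 this limit was 9.19-fold. The locus would not have passed the filter on low counts without the high strength initiation libraries, so no test is given for it. In low strength hens it averaged 0.16 ± 0.119 CPM in growth and 0.868 ± 0.764 CPM at initiation (SD, n = 3 each).

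The most abundant Ensembl locus to fall was ENSGALG00000026742, at 2575, 2002 and 1673 CPM in growth and 13802, 10701 and 10328 CPM at initiation. The libraries of each period kept close together and the periods did not overlap. The change was −2.48 ± 0.68 (log2, SE; adjusted p = 0.0146 by edgeR, and 0.0521 without growth replicate 3). In low strength hens the same locus had 2453, 2050 and 1617 CPM in growth, near the high strength values, but 3062, 4483 and 10309 CPM at initiation, and its change there did not pass the test (adjusted p = 0.0839 by edgeR). The change in high minus that in low strength hens was −0.93 ± 0.91 (log2, SE; adjusted p = 0.799 by edgeR).

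**Figure D2:**
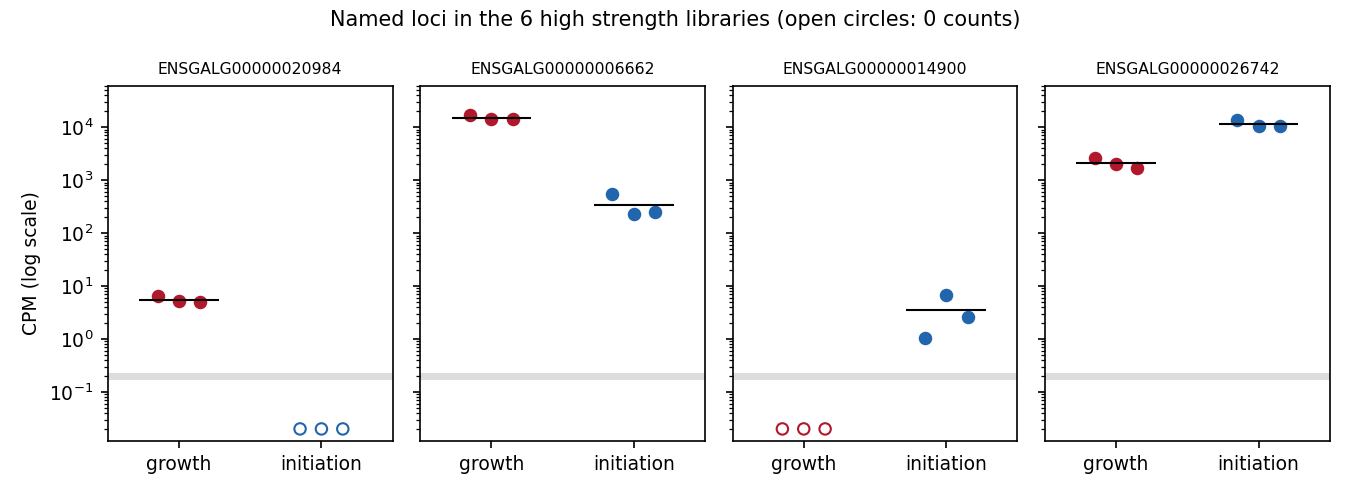
CPM on a log axis for the 4 named loci in the 3 growth and 3 initiation libraries of high strength hens, with replicates 1 to 3 from left to right and the mean as a black line; open circles mark libraries with 0 counts, drawn at an arbitrary height, and the grey band is the level of 3 counts. ENSGALG00000006662 and ENSGALG00000026742 are counted in all 6 libraries, and the other pair is at 0 in 1 period.

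The loci that changed were 34.4% of those tested, 18.6% higher and 15.9% lower in growth. Their shares of the counts are to be read beside these figures. The 2990 that rose took 29.4%, 28.7% and 28.2% of all counts in the growth libraries and 10.01%, 11.3% and 10.8% at initiation. The 2555 that fell took 7.9%, 8.9% and 8.9% in growth and 23.0%, 21.1% and 21.8% at initiation. These shares describe loci chosen on the same values and have no test. Between 62.3% and 62.9% of the counts in growth, and between 67.0% and 67.5% at initiation, came from tested loci that did not pass.

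At the top of the range, 61 loci averaged 1000 CPM or more over the 6 libraries. Of these, 15 rose by 0.67 to 5.88 on the log2 scale, 13 fell with changes of −4.48 to −0.50, and 33 did not pass the test. With total-count scaling 10 of the 61 rose and 18 fell, and with upper-quartile scaling 12 rose and 15 fell. The 15 that rose made up 5.9%, 5.7% and 5.22% of the counts in growth, against 1.16%, 1.16% and 1.11% at initiation. The 13 that fell made up 1.34%, 1.46% and 1.4% in growth, against 6.11%, 5.78% and 5.79% at initiation. The 100 most abundant loci of growth and the 100 most abundant of initiation had 56 in common.

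The single most abundant locus of each library took 6.31%, 3.91% and 4.98% of the counts in growth and 2.76%, 3.39% and 2.93% at initiation. The growth libraries were all above those of initiation (exact permutation test, p = 0.1, the smallest possible; adjusted p = 0.3 over 9 library measures). The most abundant locus by group mean was not the same in both periods, so the share does not follow 1 locus. That of growth changed by 0.87 on the log2 scale (adjusted p = 0.204 by edgeR). That of initiation changed by −0.61 (adjusted p = 0.38 by edgeR). The 10 most abundant loci together took 16.3% ± 1.75 in growth and 16.9% ± 0.608 at initiation (SD, n = 3 each), with overlapping libraries (exact permutation p = 0.5).

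Calls were more frequent among abundant loci. Of loci averaging under 1 CPM over the 6 libraries, 7.35% were called higher and 12.4% lower in growth, with a median standard error of 0.72 on the log2 scale. Between 10 and 100 CPM, where the median standard error was 0.27, 20.3% were higher and 16.3% lower. Between 100 and 1000 CPM, 23.8% were higher and 14.9% lower. With total-count scaling the counts in this last range became 281 higher and 295 lower, and with upper-quartile scaling 324 and 325, so the excess of rises there was not kept. Loci under 1 CPM fell more often than they rose under each of the 3 scalings. They were tested only where 3 or more of the 18 libraries were over 1 CPM. Their direction may thus depend on which group let them through this filter, which was not tested.

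Annotated and unannotated loci differed in direction. Among the 12727 tested Ensembl loci, 2624 rose and 1736 fell in growth, with a median log2 change of 0.05 (1846 and 2071 with total-count scaling, and 2227 and 2211 with upper-quartile scaling). Among the 3383 tested loci that carry only a number of the authors' own, 366 rose and 819 fell, with a median of −0.38, against −0.02 over all tested loci. The numbered loci fell more often than they rose under each of the 3 scalings, with 280 and 306 rises and 902 and 934 falls under total-count and upper-quartile scaling. They took 8.26%, 8.14% and 7.92% of the counts in growth and 10.8%, 10.1% and 10.1% at initiation, without overlap (exact permutation test, p = 0.1, the smallest possible; adjusted p = 0.3 over 9 library measures). Numbered loci were less abundant, with a median of 4.29 CPM in growth and 5.18 CPM at initiation, against 24.1 and 21.4 CPM for Ensembl loci. The files give neither their positions nor their strand.

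**Figure D3:**
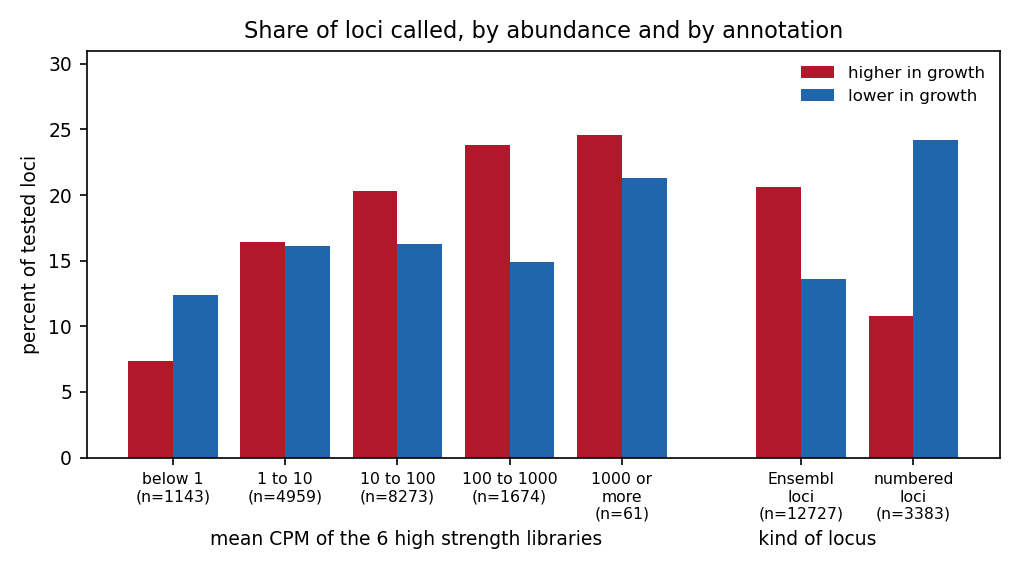
Bars give the percent of tested loci called higher (left bar) or lower (right bar) in growth in high strength hens, in 5 ranges of mean CPM and for Ensembl and numbered loci, with the number of loci under each pair. Numbered loci were called lower more often (24.2%) than higher (10.8%) and Ensembl loci the reverse (13.6% and 20.6%), an excess of rises that total-count scaling turns round.

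Changes of more than 16-fold differed between the directions in abundance and in the share of numbered loci. The 114 loci that rose this much had a median of 19.2 CPM in growth and 0.614 CPM at initiation, and 29 of them (25.4%) were numbered loci. The 66 that fell this much had a median of 0.142 CPM in growth and 4.14 CPM at initiation, and 38 (57.6%) were numbered loci, against 21.0% of all tested loci. Counted anew under the other scalings, changes above 16-fold were 109 rises and 69 falls with total-count scaling and 100 rises and 73 falls with upper-quartile scaling. With TMM, 61 of the 114 rises and 54 of the 66 falls were below 1 CPM in all 3 libraries of the lower period. Loci so low in 1 period may have passed the filter on low counts through the other, as ENSGALG00000014900 did. The part of this filter in the contrasts between large rises and large falls was not tested. Large falls, which were less abundant, were less even between replicates. The part of abundance in this and in the share of numbered loci was not tested. The highest and lowest of the 3 libraries in the higher period lay a median of 1.22 apart on the log2 scale for the falls and 0.84 apart for the rises, and this range passed 4-fold for 17 of the 66 falls and 15 of the 114 rises.

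Few loci were switched fully on or off. Of the 2067 loci with no count in the 3 initiation libraries, 9 had more than 3 counts in every growth library, and their highest mean was 5.5 CPM. Of the 2082 with no count in the 3 growth libraries, 13 had more than 3 counts in every initiation library, with a highest mean of 3.48 CPM. Numbered loci were 1 of the 9 and 5 of the 13, against 3758 of all 20866 listed loci. Of the 9 and the 13, 3 and 7 were abundant enough to test. Among changes above 16-fold, 3 of the 114 rises and 11 of the 66 falls had no count in any library of the lower period. The limit set by the filter on low counts, given above for these changes, holds for this contrast too.

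The loci called in high strength hens mostly moved the same way in low strength hens, whose libraries are separate. Their changes on the low strength side were smaller at the median, 1.18 against 1.55 for the rises and −0.86 against −1.29 for the falls in high strength hens (log2), on whose values these loci were chosen. Loci chosen on the low strength values had smaller median changes on the high strength side. The 2388 loci called higher in low strength growth had a median log2 change of 1.23 in high strength hens and 1.61 in low strength hens, and the 2353 called lower had −0.78 and −1.36. Of the 2990 rises in high strength hens 1602, and of the 2555 falls 1060, were called the same way in low strength hens. Over all 16110 tested loci, 4288 were called there with the sign they had in high strength hens. Both strength groups shared 1 estimate of the spread over all 18 libraries, so calls in one group are not independent of calls in the other. In both directions the share with the same sign was lowest among called changes of up to 2-fold. Of the 770 rises of up to 2-fold, 88.7% had the same sign in low strength hens, and of the 114 rises above 16-fold 98.2% did, with 99 of the 114 also called there. For falls the share was 90.5% up to 2-fold, 94.7% from 2-fold to 4-fold, 95.9% from 4-fold to 16-fold and 95.5% above 16-fold. Of the 66 falls above 16-fold, 44 were also called in low strength hens, where 29.4% of all loci were called. Over all tested loci 81.1% had the same sign in both strength groups, and over those not called in high strength hens 74.6%.

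The change from initiation to growth differed between high and low strength hens for 307 loci, 1.91% of those tested, with 222 changes higher and 85 lower in high strength hens (edgeR, quasi-likelihood test of the difference of changes, threshold 0.05). In 74 of the 307, and in 8690 of all 16110 tested loci, the change was larger in size in high strength hens than in low strength hens. On the high strength side 172 of the 307 did not pass the test, 75 rose and 60 fell. Over all 16110 tested loci these counts were 10565, 2990 and 2555. On the low strength side 197 fell, 55 rose and 55 did not pass, against 2353, 2388 and 11369 of all tested loci. The loci were chosen on these same values, so the selection itself shapes the medians and highest groups below, which have no test. For the 222 the median log2 change was 0.47 in high and −2.18 in low strength hens, and for the 85 it was −0.70 in high and 1.20 in low strength hens. In 302 of the 307 the strength groups were farther apart at initiation than in growth, as they were in 12054 (74.8%) of all 16110 tested loci. Of the 222, 212 had their highest group mean in low strength initiation, with a median log2 difference, high minus low, of −2.31 at initiation and 0.12 in growth, and over all tested loci 4156 had their highest mean there. Of the 85, 61 had their highest mean in high strength initiation, with a median difference of 1.68 at initiation and −0.21 in growth, against 5028 of all tested loci with their highest mean there. Low strength initiation libraries also had more bases at quality 30, 95.15%, 94.72% and 94.26%, than the high strength initiation libraries given above, and the part of this in the differences was not tested.

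The number of differing changes moved when any single initiation or growth library was left out, which also leaves fewer replicates. With replicates 1, 2 and 3 left out in turn, it was 211, 199 and 192 for high growth and 182, 176 and 132 for high initiation. For low growth it was 171, 179 and 211, and for low initiation 110, 115 and 325. It was 671 without high termination replicate 3, a library that stands apart from its group and belongs to neither change; 16070 loci were then tested, and the cause of the move was not tested.

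**Figure D4:**
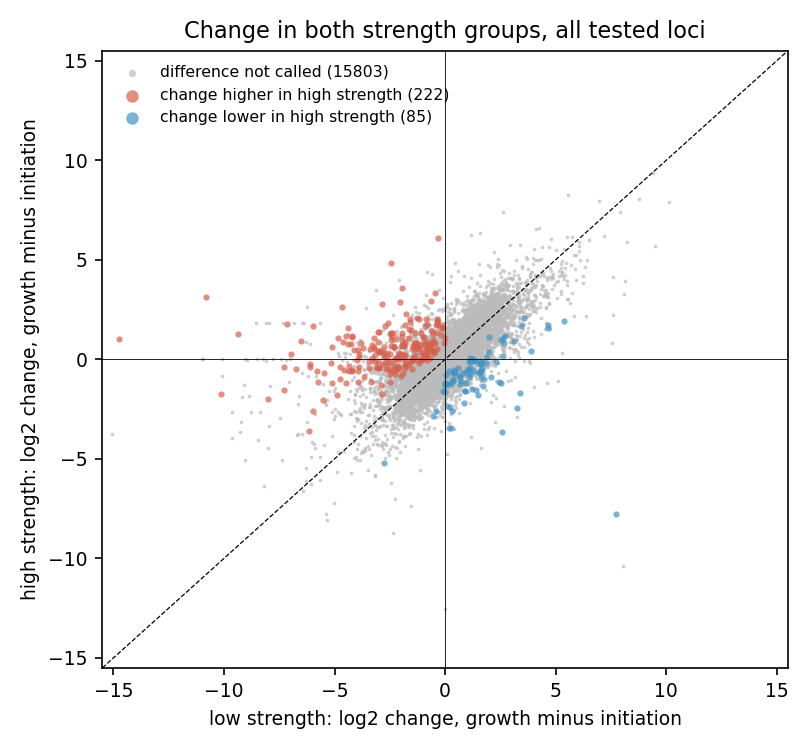
Each point is a tested locus, with its log2 change, growth minus initiation, in low strength hens on the x axis and in high strength hens on the y axis; the dashed line marks equal changes. The 222 and 85 coloured loci are those whose changes differed. Of these 307, the change did not pass the test for 172 in high strength hens and for 55 in low strength hens. Over all 16110 tested loci it did not pass for 10565 and 11369.

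Among loci whose difference of changes passed the test, the 2 largest positive differences of Ensembl loci belonged to loci that were hardly expressed in high strength hens. ENSGALG00000005360 had 0.362, 0.588 and 1.73 CPM in high growth and 0.513, 0.127 and 0.705 CPM at high initiation, and its change there did not pass the test (1.02 ± 0.73, log2, SE; adjusted p = 0.272 by edgeR). In low strength hens it had 0.303, 0.0639 and 0.759 CPM in growth against 12547, 10796 and 8763 CPM at initiation. The difference of changes was 15.77 ± 1.07 (log2, SE; adjusted p = 1.61e-06 by edgeR). ENSGALG00000016012 passed the filter on low counts only through low strength initiation, so its values are given as a description. It had 2, 0 and 1 counts in the high growth libraries and 0 in each at high initiation, and in low strength hens 0 counts in growth and 15.3 ± 6.68 CPM at initiation (SD, n = 3).

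Among the differences that passed the test, the 2 largest negative ones of Ensembl loci were those of ENSGALG00000011219 and ENSGALG00000002051. ENSGALG00000011219 had 0.29, 0.196 and 0.23 CPM in high growth against 1.39, 1.59 and 0.962 CPM at high initiation, without overlap (−2.43 ± 0.73, log2, SE; adjusted p = 0.0224 by edgeR). In low strength hens it had 6.17, 5.56 and 2.51 CPM in growth against 0.443, 0.238 and 0.799 CPM at initiation (3.26 ± 0.67, log2, SE; adjusted p = 0.00288 by edgeR). The difference of changes was −5.68 ± 0.99 (log2, SE; adjusted p = 0.00761 by edgeR). The growth values in high strength hens rest on 4, 3 and 4 counts. ENSGALG00000002051 had 0.652, 0.131 and 0.23 CPM in high growth and 0.954, 1.08 and 1.22 CPM at high initiation, without overlap. It had 46 counts over the low strength growth libraries and 4 over those of initiation. This locus would not have passed the filter on low counts without the high strength initiation libraries, and its values are a description.

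The levels of the called loci were followed into the other libraries of the series, relative to the mean of high strength initiation, which all of these values share. The loci were chosen on the high strength growth and initiation values. That selection itself shapes the positions below, in the other groups too, and they have no test. At the median, the 2990 risen loci stood 1.62, 1.44 and 1.49 above it in the growth libraries on the log2 scale. In high strength termination they stood 1.43 and 1.55 above it in replicates 1 and 2, close to growth, and at −0.11 in replicate 3. The 2555 fallen loci stood at −1.31, −1.27 and −1.22 in growth and at −1.08, −1.24 and −0.14 in termination replicates 1 to 3. ENSGALG00000006662 had 10498, 15424 and 3826 CPM in high termination replicates 1 to 3, so that replicate 3 lay below every growth library but above every initiation library. ENSGALG00000026742 had 2871, 2132 and 18816 CPM, with replicate 3 above every initiation library. In low strength growth the risen loci stood at 1.57, 1.56 and 1.46, and in low strength initiation at 0.52, 0.46 and −0.06, so that replicates 1 and 2 of that group were above the high strength initiation libraries, which ranged from −0.14 to 0.11. In low strength termination replicates 1 to 3 the risen loci stood at 0.23, −0.20 and −0.09 and the fallen loci at −0.34, −0.14 and −0.17, nearer to high strength initiation than to growth. TMM factors were 0.905, 0.677 and 0.755 in these 3 libraries and 0.824 in high termination replicate 3. In the 6 high strength growth and initiation libraries they were 1.0 to 1.13. Positions were taken with TMM only, and their dependence on the scaling was not tested.

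**Figure D5:**
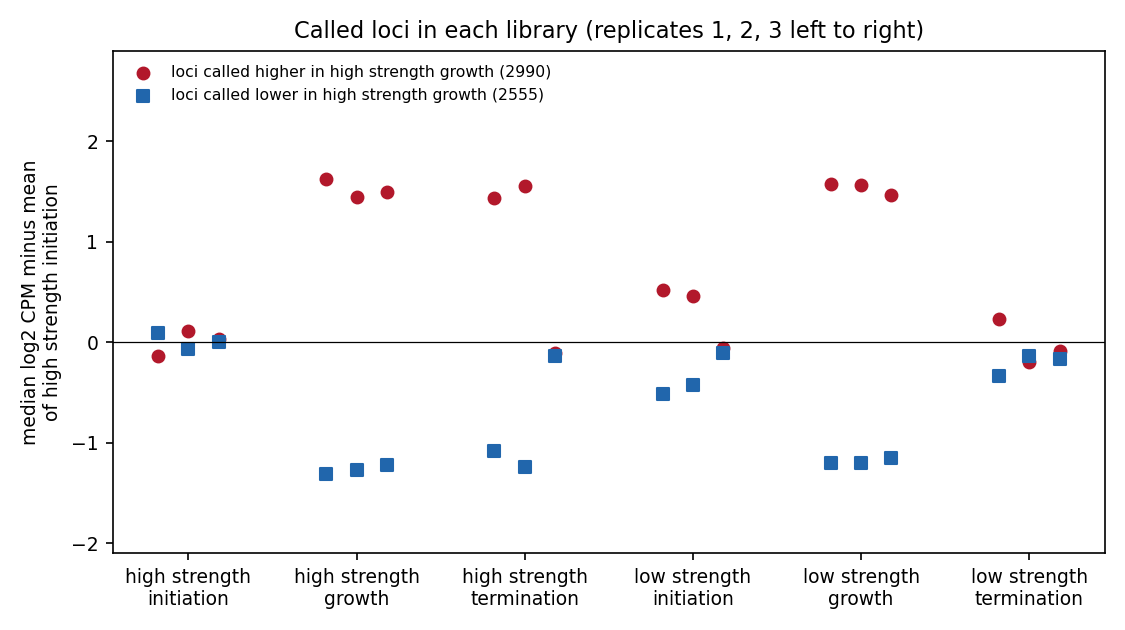
Points give, for each library, the median log2 CPM of the 2990 loci called higher (circles) and the 2555 called lower (squares) in high strength growth, minus the mean of high strength initiation. High strength termination replicates 1 and 2 lie at the growth level and replicate 3 at −0.11 and −0.14. Low strength initiation replicates 1 and 2 lie between initiation and growth. The loci were chosen on the high strength growth and initiation values, which shapes these positions, and only TMM scaling was used.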

How the data were processed

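Per the labels' protocols, total RNA was isolated with Trizol and libraries were made with the TruSeq RNA kit. Bowtie2, TopHat, TopHat2 and the build galGal4 are listed, per the submitters' processing notes. How reads were counted per locus, with or without strand, and from which annotation release was not given in the sources used here, which leaves paralogs and overlapping or antisense loci uncertain. The authors deposited a table named as normalized, whose values were treated as counts because all are whole, no whole number from 0 to 100 is missing in any library and totals vary; a mild rescaling with rounding might still be missed. The deposited read statistics gave the percent of bases at quality 30 and the GC percent (mate 1).

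Of the 20866 loci, 17108 have Ensembl identifiers and 3758 were numbered by the authors. The RefSeq table of assembly GRCg7b had 0 rows with an Ensembl identifier, so the 28 gene lists fixed by symbol could not be used. Loci with over 1 CPM in 3 or more libraries (16110) were scaled with TMM and tested with edgeR 4.0.16 (R 4.3.3, limma 3.58.1) by the quasi-likelihood test over all 18 libraries with a mean for each of 6 groups; p-values were two-sided and Benjamini-Hochberg adjusted over all loci within each of 2 comparisons. Standard errors are the log2 change over the square root of F. Log2 CPM used a prior count of 2. Floors of 3 counts (0.173 to 0.22 CPM) cover counting error only. Replicates differed beyond counting noise (chi-square per degree of freedom 13.2 or more), and each counted as 1 sample. The code was tested on simulated data in which 200 of 16110 loci were changed in high strength growth. For growth against initiation, 11 of 100 loci changed 2-fold and 72 of 100 changed 4-fold were called. For the difference of changes these were 1 and 29 of 100, so a locus that did not pass may still differ. Of the unchanged loci, 5 and 2 were called in these 2 comparisons. Far fewer loci were changed in the simulation than the 5545 called in the data. The simulated counts are therefore not the sensitivity of the growth against initiation test. Summaries used Python 3.11.15, pandas 2.3.3 and scipy 1.17.1.

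Named loci were to be the largest rises and falls and the most abundant called loci without overlap and with at least 1 CPM in the higher group. Without symbols this was kept to the first Ensembl locus of each ranking and direction, and to 2 per direction for the difference between strength groups, with values in view. Members, lists and rules were chosen with earlier results of these data known. Alternatives were DESeq2 1.42.0, limma-voom with library weights, no filter, other scalings, smaller sets of libraries, a replicate block and leaving out single libraries.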

Additional observations from a re-analysis of the deposited data

Results flagged for a closer look

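The change from initiation to growth differed between high and low strength hens by a test of the difference itself for 307 loci (edgeR quasi-likelihood test). Among Ensembl loci that passed this test and averaged at least 1 CPM in 1 of the 4 groups, the 2 largest differences in each direction, high minus low on the log2 scale, were ENSGALG00000005360 at 15.77, ENSGALG00000016012 at 13.97, ENSGALG00000011219 at −5.68 and ENSGALG00000002051 at −5.06. ENSGALG00000005360 and ENSGALG00000016012 had their highest group mean in low strength initiation, and the values of ENSGALG00000016012 in high strength hens are at or below 3 counts per library, so that its fitted difference depends on the prior count and is no bound. ENSGALG00000016012 passed the filter on low counts only through low strength initiation, and ENSGALG00000002051 would not have passed it without high strength initiation. Their places in this ranking are therefore a description and not a test result.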

How the results depend on the processing

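The growth against initiation calls, 5545 in all, became 10890 with limma-voom and library weights and 8467 in the fit to the 12 initiation and growth libraries; leaving out 1 initiation or growth library gave 2742 to 5574. DESeq2 called 6835, the fit to the 6 high strength libraries 7967 and the fit without high termination replicate 3 8232. No called locus was called in the opposite direction under any of the 22 alternatives run, and 2103 were called the same way under all of them. For the difference between strength groups, 307 calls became 794 with DESeq2, 4860 with limma-voom, 763 with the 12 libraries, 671 without high termination replicate 3 and 110 to 325 with 1 initiation or growth library left out; total-count scaling moved its median over all loci to 0.12 from 0.01. The causes were not tested. The replicate block gave 5820 and 285 calls, and 7113 within the 6 libraries. Libraries of the same number share only a number: the correlation of their deviations from the group mean was −0.0603, −0.0163 and 0.0301. Of the 8 named loci none changed sign in the fits that tested it; ENSGALG00000016012 was not tested without low initiation replicate 1, 2 or 3, nor ENSGALG00000002051 without high initiation replicate 2 or 3 or low growth replicate 3. ENSGALG00000026742 lost its call without high growth replicate 3. ENSGALG00000014900, ENSGALG00000016012 and ENSGALG00000002051 passed the filter on low counts only with the group where they are highest. No adjusted p is given for them, and their signs over the fits are a description. ENSGALG00000016012 and ENSGALG00000002051 were not called in every fit. The gene lists and the settings planned for normalized values were not run. Depth limits loci under 1 CPM most.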
